A study of Mustela putorius furo with 2 samples.

Results

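Cadherin and protocadherin genes were followed across the nucleus types of ferret somatosensory cortex and between 2 bands of that cortex. The members are the features whose symbol is CDH followed by a digit, or starts with PCDH, in the feature tables of both libraries. This rule gave 38 genes of 28156 features, of which 14296 carry a symbol. It used names and no measured value. The tissue came from the ferret (Mustela putorius furo), labelled with the genotype DCX knockout, although the series text speaks of a knockdown. The DCX protein, doublecortin, binds microtubules in young neurons on the move. One library was made from nuclei of the upper cortical band and 1 from nuclei of the deeper band, so both groups share the genotype and differ in band. The band of each library comes from its tissue region label, whereas their titles count them as replicate 1 and replicate 2 of a mutant. Age, sex, the number of animals and any pooling are not given in the sources used here, and wild-type tissue was not analysed here. With 1 library per band no test was possible, and a band effect cannot be told apart from one of library or animal. Where 2 values are given for a gene, the upper band comes first. All intervals below are 95% intervals that cover counting error only.

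Cadherins are calcium-dependent adhesion proteins that hold cell membranes together, mostly by binding the same or a closely related cadherin on the other cell. Classical cadherins of type I and type II bind catenins inside the cell, which connect them to actin. The type II group is known for combinations that differ between cortical layers and between brain nuclei. Protocadherins lack the classical catenin site. Their delta group includes members that bind the WAVE actin regulator, and the clustered group gives neurons differing surface identities.

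After filtering, 6248 nuclei of the upper band and 8211 of the deeper band were used, with median depths of 7979.5 and 4952 UMIs (unique molecular identifiers, each 1 captured RNA molecule). The libraries shared 24 of their barcodes. DCX itself stood at 78.65 and 77.1 CPM (UMIs per 1000000 UMIs), which cannot check the genotype label without wild-type tissue. Clustering without the members gave 28 clusters. Of these, 22 showed the markers of excitatory neurons, inhibitory neurons, astrocytes, oligodendrocytes or oligodendrocyte precursors, and 21 had at least 10 nuclei in each library. Types are written by a pair of their own high genes, such as HTR2C/TSHZ2, and a resemblance to a layer or interneuron group is given only where the marker lists allowed it. The 6 clusters left unnamed held 11.9% and 7.32% of the nuclei.

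Of the 38 members, 33 had at least 100 UMIs over both libraries and 21 had at least 1000. Members took 0.670% and 0.701% of the UMIs of the libraries. Those 21 were 11 of 13 type II cadherins, 2 of 5 type I cadherins (CDH2 and CDH4), all 3 delta-1 protocadherins (PCDH1, PCDH7, PCDH9), 2 of 5 delta-2 protocadherins, 2 of 6 atypical members (CDH13 and PCDH15) and 1 clustered gene. CDH16 had 0 UMIs, and CDH15, CDH26, CDH5 and CDH24 had 11 to 77. Only 5 clustered protocadherins carry a symbol (PCDHA3, PCDHAC2, PCDHB1, PCDHGA4 and PCDHGA7). Genes of these arrays share exons or near-identical copies, so their values are uncertain.

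Each member's level was its CPM over the summed UMIs of a type in a library. Of the 33 members with enough UMIs, 23 were highest in a neuron type, against 57.3% of all 15271 genes with as many UMIs. By the mean of both libraries, 12 peaked in an excitatory type, 11 in an inhibitory type, 5 in an oligodendrocyte type, 3 in the precursors and 2 in astrocytes. A specificity index that runs from 0 (equal in all types) to 1 (a single type) had a median of 0.721 over members and 0.591 over all genes. Within excitatory types the medians were 0.597 and 0.391, and within inhibitory types 0.596 and 0.319. Types were ordered alike in both libraries for most members, with a median Spearman rho of 0.84 over the 11 excitatory types and 0.90 over the 5 inhibitory types. These rest on summed nuclei of the same libraries and are descriptions.

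**Figure D1:**
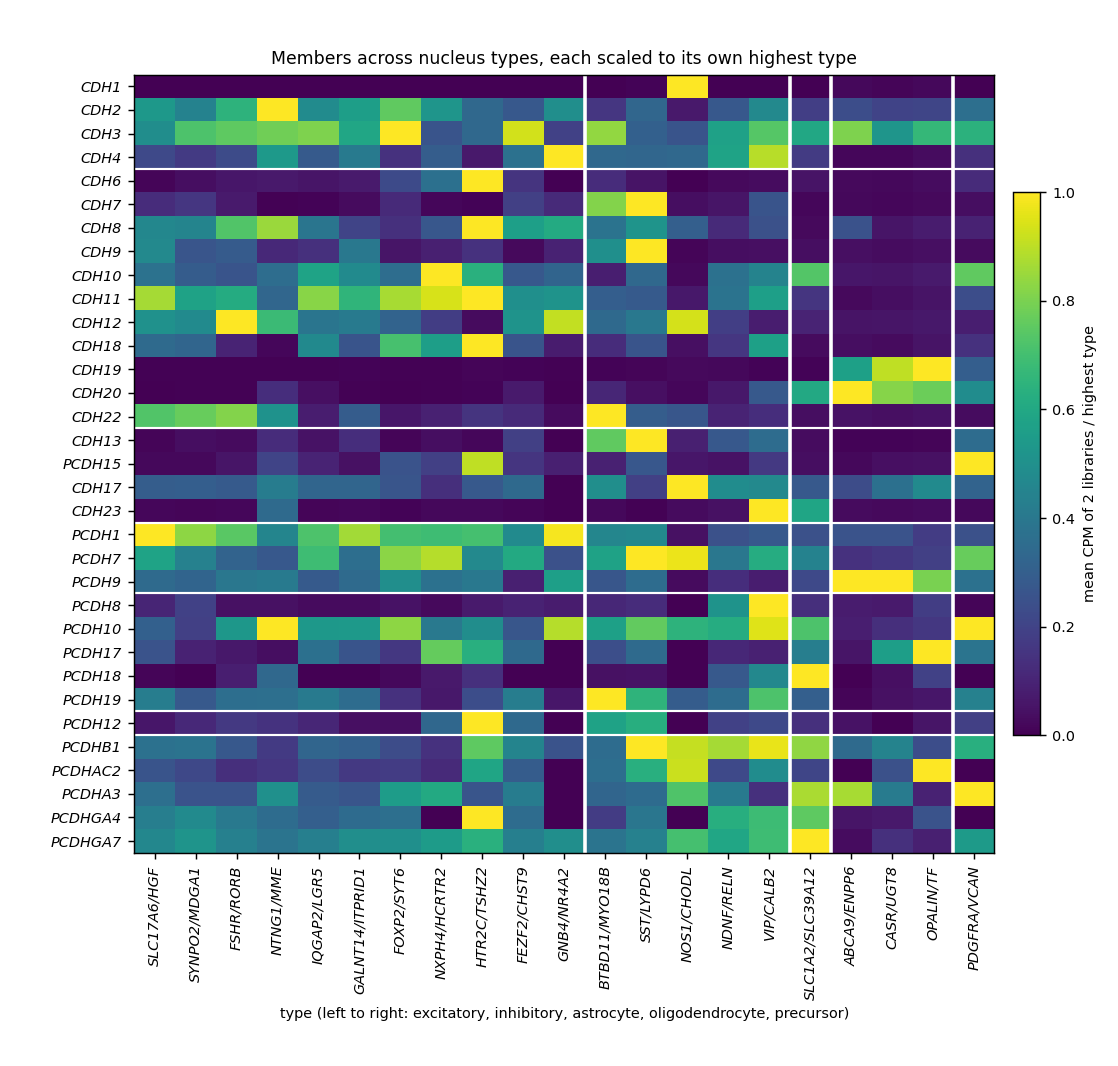
Mean CPM of the 2 libraries for the 33 members with at least 100 UMIs (vertical axis, families separated by white lines) in 21 nucleus types (horizontal axis, classes separated by white lines), each gene divided by its own highest type. Most members are bright in 1 to a few columns, and CDH19, CDH20 and PCDH9 are bright in the oligodendrocyte columns.

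Among type I cadherins, CDH2 (N-cadherin, the cadherin of neuroepithelium and of synapses) was present in every type. Its highest level was in excitatory NTNG1/MME nuclei, at 1289 and 1374 CPM. The lowest excitatory level, 336 and 399 CPM, was in the layer 5-like FEZF2/CHST9 nuclei, of which there were 139 and only 22. CDH4 (R-cadherin) was highest among excitatory types in the layer 6 intratelencephalic-like GNB4/NR4A2 nuclei, at 146 CPM (93.7 to 218) and 207 CPM (152 to 276). That type had 16 and 20 nuclei, and its interval in the upper band overlaps the 106 CPM of NTNG1/MME nuclei. CDH3 (P-cadherin) stayed between 0 and 13.3 CPM in all excitatory types and libraries.

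Type II cadherins marked excitatory types in overlapping sets. CDH6 was concentrated in HTR2C/TSHZ2 nuclei, at 326 CPM (297 to 358) and 331 CPM (263 to 411). Next came NXPH4/HCRTR2 nuclei, at 136 and 106.5 CPM, and the layer 6 corticothalamic-like FOXP2/SYT6 nuclei, at 85.0 and 62.0 CPM. The other 8 excitatory types lay between 0 and 67.3 CPM, so the first 2 types stood above the rest in both libraries. HTR2C/TSHZ2 nuclei, 157 and only 27 in number, carried markers of both layer 5 and layer 6 and were given no layer name. Both genes of their handle, HTR2C and TSHZ2, are on the marker list of near-projecting neurons.

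CDH8, a cadherin of cortical projection neurons, was highest in the same HTR2C/TSHZ2 nuclei, at 1208 and 1336 CPM. NTNG1/MME nuclei followed at 1055 and 1110 CPM and FSHR/RORB nuclei at 947 and 903 CPM. FOXP2/SYT6 nuclei were the lowest, at 96.3 and 258 CPM. CDH11 had the lowest index of the 10 type II members with over 1000 UMIs in excitatory nuclei, 0.332, and was lowest in NTNG1/MME nuclei, at 175.5 and 176 CPM. Its highest type was NXPH4/HCRTR2 in the upper band (524 and 480.5 CPM) and HTR2C/TSHZ2 in the deeper band (452 and 617 CPM).

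CDH18 and CDH12, neuronal type II members, had nearly opposite profiles. CDH18 reached 1516 and 1058 CPM in HTR2C/TSHZ2 nuclei and 940 and 883 CPM in FOXP2/SYT6 nuclei, and was lowest in NTNG1/MME nuclei at 20.2 and 21.7 CPM. CDH12 reached 750.5 and 768 CPM in FSHR/RORB nuclei. The small GNB4/NR4A2 type followed at 628 CPM (512 to 761) and 752 CPM (642 to 875), overlapping FSHR/RORB nuclei in both libraries. In NTNG1/MME nuclei CDH12 was at 562 and 471 CPM, and it was lowest in HTR2C/TSHZ2 nuclei at 22.8 and 24.5 CPM. Over the 10 excitatory types with at least 100 nuclei their levels had a Spearman rho of -0.89 and -0.855, the most negative of 190 pairs of members by the mean of both libraries. CDH6 and PCDH15 ran together, with rho of 0.83 and 0.88, and CDH11 and CDH18 had rho of 0.745 and 0.88. All pairs share the same types, nuclei and libraries, so these are descriptions.

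CDH10 was highest in NXPH4/HCRTR2 nuclei, at 1142 and 1258 CPM. HTR2C/TSHZ2 nuclei, at 832 and 691 CPM, and the layer 5-like IQGAP2/LGR5 nuclei, at 683 and 705 CPM, came next and changed order between libraries. CDH9, known from hippocampal synapses, was highest among excitatory types in SLC17A6/HGF nuclei (382 and 418 CPM) and GALNT14/ITPRID1 nuclei (306.5 and 376 CPM). It was at 24.1 and 21.6 CPM in FEZF2/CHST9 nuclei.

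CDH22 was highest in 3 types. It stood at 68.4 and 77.05 CPM in SLC17A6/HGF nuclei, at 72.2 and 81.2 CPM in the layer 2/3-like SYNPO2/MDGA1 nuclei and at 69.9 and 92.6 CPM in FSHR/RORB nuclei. In IQGAP2/LGR5 and FOXP2/SYT6 nuclei it lay between 5.38 and 10.7 CPM. CDH7 overlapped with it in SLC17A6/HGF nuclei (39.75 and 40.6 CPM) and SYNPO2/MDGA1 nuclei (40.15 and 59.5 CPM), but was also high in FEZF2/CHST9 nuclei (61.2 and 57.7 CPM). In the deeper band the CDH7 interval of FEZF2/CHST9 nuclei, 37.0 to 85.8 CPM, overlaps those of both other types.

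CDH20 had 3 excitatory sites. It was at 536 and 564 CPM in NTNG1/MME nuclei, 363 and 236 CPM in FEZF2/CHST9 nuclei and 136 and 212 CPM in IQGAP2/LGR5 nuclei. The other 8 excitatory types lay between 4.502 and 43.3 CPM. Oligodendrocytes held CDH20 at 3573 and 3505 CPM, and 12 oligodendrocyte markers stood in excitatory nuclei at a median of 0.501% and 0.383% of their own level. Single markers ranged from 0.278% to 4.07% and from 0.223% to 2.62%. The part of free RNA in the CDH20 of those 8 types was not tested.

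**Figure D2:**
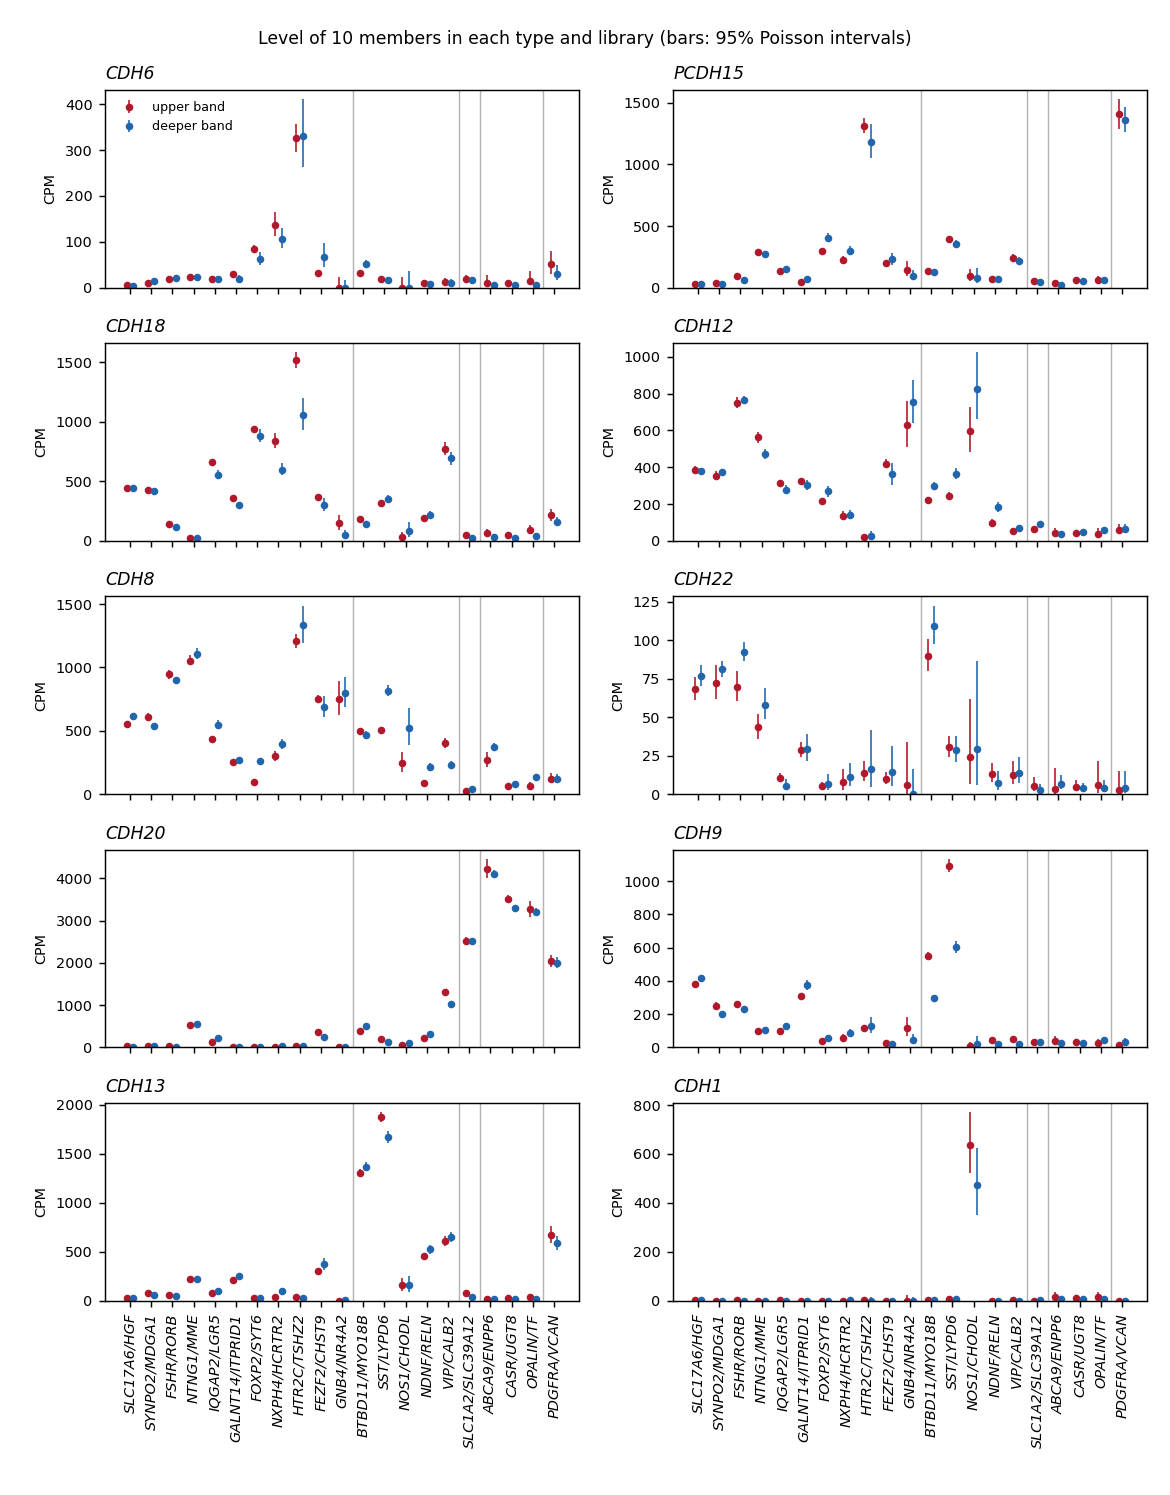
CPM of 10 members (vertical axes, linear, from 0) in 21 nucleus types (horizontal axis, classes separated by grey lines), red for the upper band and blue for the deeper band, with bars for 95% Poisson intervals of counting. Among excitatory types CDH6 and PCDH15 are both highest, and CDH12 lowest, in HTR2C/TSHZ2 nuclei, and CDH1 is high in NOS1/CHODL nuclei.

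Several atypical members peaked in single types. PCDH15 and CDH23 encode the pair of proteins that form the tip link of inner-ear hair cells. In excitatory nuclei they peaked in different types. PCDH15 was at 1315 CPM (1254 to 1377) and 1185 CPM (1053 to 1330) in HTR2C/TSHZ2 nuclei and at most 405 CPM in any other excitatory type of either library. CDH23 was at 31.1 CPM (24.6 to 38.7) and 42.15 CPM (34.2 to 51.4) in NTNG1/MME nuclei and at most 4.09 CPM elsewhere among excitatory types. CDH13 (T-cadherin, which is tied to the membrane by a lipid anchor) was highest in FEZF2/CHST9 nuclei at 306 and 370 CPM, with GALNT14/ITPRID1 nuclei at 211 and 251.5 CPM and NTNG1/MME nuclei at 222 and 225 CPM.

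In all, 17 of 28 members with enough UMIs in excitatory nuclei had the same highest type in both libraries, where the share over all genes was 36.3%. A highest type that was the same in both libraries and reached at least 4 times the median of the other types in each was found for 5 members (CDH6, CDH20, CDH13, PCDH15 and CDH23), where the share over all genes was 6.66%. CDH22 and PCDH8 also reached 4 times the median in each library, but their highest type differed between libraries.

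Of the 6 delta protocadherins described here, 5 had excitatory indices of 0.283 to 0.501, below the median of 0.597 over members, and PCDH8 had 0.707. PCDH9 (delta-1) lay between 1961 and 4407 CPM in 10 excitatory types and at 574 and 666 CPM in FEZF2/CHST9 nuclei. PCDH1 was highest in SLC17A6/HGF nuclei at 67.5 and 69.05 CPM and lowest in NTNG1/MME nuclei at 31.5 and 30.4 CPM. PCDH7 was highest in NXPH4/HCRTR2 nuclei at 54.15 and 54.35 CPM, close to FOXP2/SYT6 nuclei at 48.1 and 53.0 CPM. PCDH10 (delta-2) was at 112 and 92.1 CPM in NTNG1/MME nuclei and at 20.1 and 18.3 CPM in SYNPO2/MDGA1 nuclei. PCDH19, a gene of a childhood epilepsy, lay between 4.502 and 71.2 CPM. PCDH8, an activity-regulated member, stood at 9.40 and 17.0 CPM in SYNPO2/MDGA1 nuclei.

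Of the clustered genes, PCDHGA7 lay between 19.8 and 43.3 CPM in all excitatory types, with no type apart from the rest in both libraries. PCDHA3 was 1 of the 3 leading members of NXPH4/HCRTR2 nuclei by ratio, but that rests on 4 and 0 UMIs.

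In interneurons, CDH1 (E-cadherin, the adhesion protein of epithelia) was at 637 CPM (522 to 771) and 472.5 CPM (348 to 626) in SST-like NOS1/CHODL nuclei. The other 4 inhibitory types lay between 0 and 7.14 CPM in both libraries. This type is small, with 22 and 12 nuclei that held 106 and 48 CDH1 UMIs. A CDH1 UMI was found in 21 of 22 nuclei (95.5%, exact binomial interval 77.2% to 99.9%) and in 9 of 12 (75%, 42.8% to 94.5%), at median depths of 7379 and 8644 UMIs. In the larger SST/LYPD6 type, at 7140 and 7230 UMIs, the shares were 3.66% and 3.15%. After thinning to 1500 UMIs the NOS1/CHODL shares were 68.2% and 41.7%, and those of SST/LYPD6 nuclei 0.568% and 0.917%.

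In the same NOS1/CHODL nuclei all members together took 0.262% and 0.286% of their UMIs, against 0.365% to 0.910% in the other inhibitory types. Of 26 members with enough UMIs, 14 were lowest there by the mean of both libraries, against 36.3% of 10062 genes. Among them were CDH2, at 138 and 39.4 CPM on 23 and 4 UMIs, and CDH10, at 30.1 and 19.7 CPM on 5 and 2 UMIs. The CDH2 interval in the upper band, 87.7 to 207.5 CPM, includes the 189 CPM of BTBD11/MYO18B nuclei. In NOS1/CHODL nuclei CDH12 was at 595 and 827 CPM, above the 53.2 to 365 CPM of the other inhibitory types. CDH19 was also among the 3 leading members of NOS1/CHODL nuclei by ratio, on 1 and 3 UMIs.

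CDH9, CDH7 and CDH13 were high in the SST/LYPD6 type and in the PVALB-like BTBD11/MYO18B nuclei. CDH9 was at 1093 and 604 CPM in SST/LYPD6 nuclei and at 549 and 296 CPM in BTBD11/MYO18B nuclei, and at most 50.3 CPM in the other 3 types. CDH7 was at 255 and 375 CPM and at 191 and 321 CPM in the same types, and at most 89.9 CPM in the others. CDH13 was at 1874 and 1674 CPM and at 1305 and 1371 CPM, and at most 648 CPM in the others. CDH22 was highest in BTBD11/MYO18B nuclei (90.1 and 109.5 CPM), with at most 30.5 CPM in the other 4 types. CDH1 was the second leading member of SST/LYPD6 nuclei by ratio, on 19 and 9 UMIs.

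The VIP-like VIP/CALB2 nuclei held CDH20, CDH23 and PCDH8. CDH20 was at 1315 and 1015 CPM, with BTBD11/MYO18B nuclei next at 379 and 517 CPM. CDH23 was at 149 CPM (126 to 174) and 62.2 CPM (46.7 to 81.1), with at most 7.17 CPM in the other types. PCDH8 was at 51.25 and 85.2 CPM in VIP/CALB2 nuclei and at 26.9 and 43.0 CPM in the LAMP5/RELN-like NDNF/RELN nuclei. These 2 types also had the highest CDH10, at 562 and 509 CPM and at 471 and 423 CPM. SST/LYPD6 nuclei followed at 387 and 420 CPM. Their CDH10 interval in the deeper band (390 to 452) lies within that of NDNF/RELN nuclei (383 to 466). CDH18 was at 772 and 692 CPM in VIP/CALB2 nuclei and at most 352 CPM in the others.

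Over inhibitory types, 21 of 26 members had the same highest type in both libraries, where the share over all genes was 47.6%. By the same rule of 4 times the median, 7 members had such a type (CDH1, CDH7, CDH9, CDH20, CDH22, CDH23 and PCDH8), where the share over all genes was 5.12%. CDH1 had 188 UMIs in inhibitory nuclei, of which 106 and 48 lay in NOS1/CHODL nuclei. CDH23 had 235, of which 154 and 54 lay in VIP/CALB2 nuclei. Both reached the minimum of 100 UMIs only through that type, so their place among the 7 was largely set by the filter. PCDH9 was highest in SST/LYPD6 nuclei at 2008 and 3021 CPM. PCDH15 was also highest there, at 393 and 356 CPM, and PCDH19 was highest in BTBD11/MYO18B nuclei at 138 and 143 CPM.

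Glia shared a small set of members. CDH20 was at 3573 CPM (3496 to 3652) and 3505 CPM (3454 to 3556) in oligodendrocytes, 2503 and 2466 CPM in astrocytes and 2036 and 2001 CPM in precursors. CDH19, a type II member known from Schwann cell precursors, was at 659 and 608 CPM in oligodendrocytes and 205 and 239 CPM in precursors, and at 5.13 and 4.32 CPM in excitatory nuclei. PCDH9 was at 6543 and 7023 CPM in oligodendrocytes, above every neuron type.

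Among the 3 oligodendrocyte types, CDH19 and CDH20 ran in opposite order. CDH19 was lowest in ABCA9/ENPP6 nuclei (421 and 421 CPM) and highest in OPALIN/TF nuclei (759.6 and 725 CPM). CDH20 was highest in ABCA9/ENPP6 nuclei (4228 and 4101 CPM) and lowest in OPALIN/TF nuclei (3265 and 3208 CPM). CDH8 was at 269 and 374.5 CPM in ABCA9/ENPP6 nuclei, against 62.2 and 80.05 CPM in CASR/UGT8 nuclei and 63.55 and 133 CPM in OPALIN/TF nuclei. Excitatory markers stood in oligodendrocytes at a median of 41.9% and 29.0% of their own level, and CDH8 in the whole class at 17.4% and 26.2%. Those medians cover 7 and 8 markers, which ranged from 3.30% to 76.8% and from 2.10% to 103%. The part of free RNA in CDH8 there was not tested.

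PCDH15 in the precursors was at 1407 CPM (1289 to 1532) and 1362 CPM (1260 to 1470), the highest of the named types and overlapping with the HTR2C/TSHZ2 interval. CDH13 followed the same split, at 671 and 585 CPM in precursors and at 25.2 and 15.5 CPM in oligodendrocytes. CDH10 was at 903 and 907 CPM in precursors, 891 and 841 CPM in astrocytes and 73.0 and 71.1 CPM in oligodendrocytes. CDH23 was at 48.3 and 77.4 CPM in astrocytes and at most 4.15 CPM in precursors and oligodendrocyte types. In the unnamed RUNX1/FLI1 cluster, which carried microglia markers, CDH23 was at 97.8 CPM (42.2 to 193) and 132 CPM (65.8 to 236). Those values rest on 8 and 11 UMIs, and their intervals overlap those of astrocytes. PCDHGA7 was at 54.15 and 53.8 CPM in astrocytes, the highest class for this gene.

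CDH5 (VE-cadherin, the junction protein of endothelium) had 58 UMIs in all, of which 31 in the upper and 9 in the deeper library lay in the unnamed FLT1/DCN cluster, which mixes vascular genes. Its level there was 62.6 CPM (42.6 to 88.9) and 39.7 CPM, in nuclei with median depths of 1156 and 1120 UMIs. The unnamed SYT2/HNF4G cluster, of 124 and 168 nuclei, carried excitatory markers and had CDH12 at 897 and 963 CPM, above every named excitatory type. It stayed unnamed because more of its top genes were markers of another class. The excitatory rankings and band ratios given here therefore leave it out.

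The bands differed in members when all excitatory nuclei were summed. A member was counted as past the fold at 1.5-fold or more with at least 100 UMIs. Higher in the deeper band were 3 of 28 members, CDH22, PCDH8 and CDH7, against 3.68% of 13731 genes. Lower were 4, CDH6, PCDH15, CDH20 and CDH18, against 6.72% of genes. CDH22 had 32.8 and 69.3 CPM (log2 ratio, deeper over upper, 1.08, interval 0.98 to 1.18). CDH6 had 44.2 and 21.8 CPM (log2 ratio -1.02, interval -1.145 to -0.89).

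PCDH15 was at 186 and 93.1 CPM (log2 ratio -0.999) and CDH20 at 107 and 65.3 CPM (log2 ratio -0.72). CDH20 fell short of the fold with averaged CPM (-0.47), with more doublets removed (-0.58) and after thinning (-0.57). CDH18 was at 533 and 345 CPM (log2 ratio -0.63), just past the fold, and CDH13 just inside it at 104 and 73.3 CPM (log2 ratio -0.51). PCDH8 was at 4.44 and 7.945 CPM (log2 ratio 0.84) and CDH7 at 21.3 and 37.5 CPM (log2 ratio 0.815). The median over the 28 members was -0.09, and over all genes -0.03.

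The types made up different shares of the excitatory nuclei of the bands. SYNPO2/MDGA1 nuclei were 6.30% and 30.4% of them, and FSHR/RORB nuclei 8.79% and 26.0%. FOXP2/SYT6 nuclei were 17.8% and 3.67%, IQGAP2/LGR5 nuclei 16.5% and 4.91%, HTR2C/TSHZ2 nuclei 5.15% and 0.819%, and FEZF2/CHST9 nuclei 4.56% and 0.667%. When every type was given the same share in both bands, no member passed the fold in either direction, against 2.04% of genes higher and 1.79% lower. CDH6 then stood at 33.1 and 31.65 CPM (log2 ratio -0.06) and PCDH15 at 141 and 149 CPM (0.08). CDH20 had a log2 ratio of -0.05, CDH18 of -0.16, CDH22 of 0.23 and PCDH8 of 0.25. CDH7 had the largest, 0.45, at 23.9 and 32.6 CPM.

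**Figure D3:**
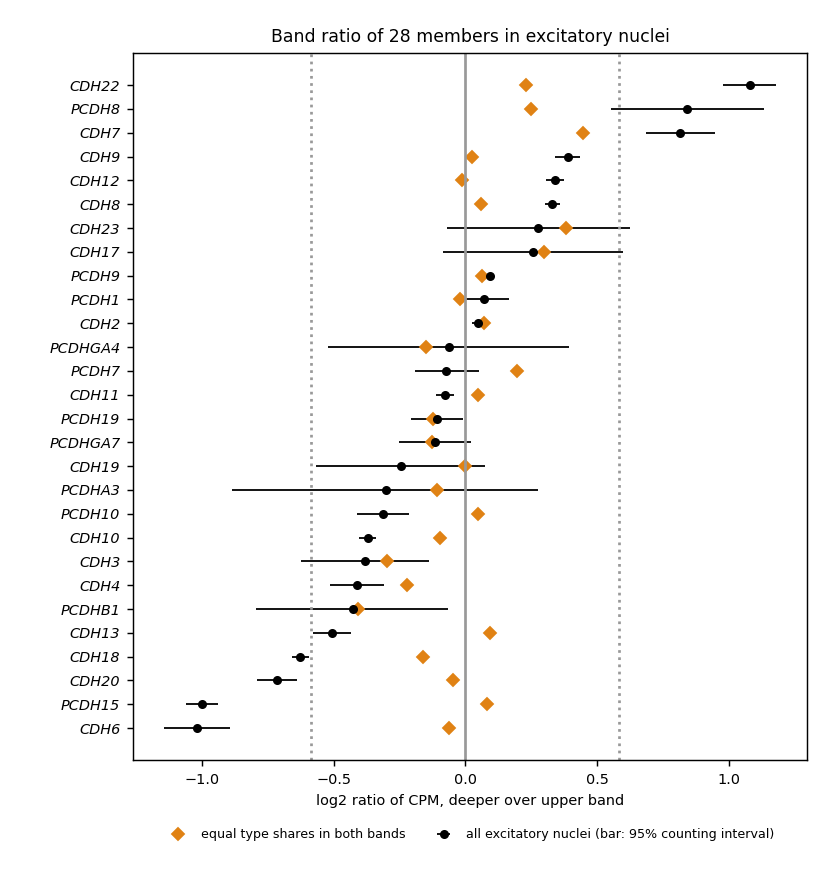
Log2 ratio of CPM, deeper over upper band (horizontal axis), of 28 members (vertical axis) in all excitatory nuclei (black points, with bars for 95% counting intervals) and with equal type shares in both bands (orange diamonds). Dotted lines mark 1.5-fold, and all diamonds lie between them, from -0.41 to 0.45.

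Single types still held differences. In FOXP2/SYT6 nuclei, CDH8 was at 96.3 and 258 CPM (log2 ratio 1.42, interval 1.21 to 1.62). CDH7 was at 24.9 and 50.5 CPM (log2 ratio 1.02) and PCDH19 at 13.1 and 26.9 CPM (log2 ratio 1.04). In that type 3 of 19 members were higher by at least 1.5-fold, against 4.51% of genes, and none was lower, against 4.52% of genes. The type had 543 and 121 nuclei, and whether its make-up differed between bands was not tested. Over all 11 excitatory types, 13 of 177 pairs of a member and a type were higher by that fold, against 3.04% of such pairs over all genes, and 4 were lower, against 2.89%.

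The pairs went both ways for CDH20. Its log2 ratio was -1.35 (-1.70 to -1.005) in FSHR/RORB nuclei, -0.98 in SLC17A6/HGF nuclei and -0.625 in FEZF2/CHST9 nuclei, against 0.635 (0.46 to 0.81) in IQGAP2/LGR5 nuclei and 0.59 in GALNT14/ITPRID1 nuclei. In SLC17A6/HGF nuclei CDH20 was at only 21.2 and 10.8 CPM, on 111 and 74 UMIs. The FSHR/RORB, SLC17A6/HGF and GALNT14/ITPRID1 types are among those low in CDH20. The part of free RNA in their CDH20 ratios was not tested. CDH6 was at 1.105 in FEZF2/CHST9 nuclei and -0.67 in GALNT14/ITPRID1 nuclei. CDH13 was at 40.3 and 94.6 CPM in NXPH4/HCRTR2 nuclei (log2 ratio 1.23), which became 0.04 after thinning to 1500 UMIs. SYNPO2/MDGA1 nuclei had CDH6, PCDH7 and PCDH8 higher in the deeper band, by 0.59 to 0.855 on the log2 scale, but CDH6 rested on 23 and 168 UMIs and was at -0.45 after thinning. CDH7 was above 0 in 4 of the 5 excitatory types with enough UMIs, and 3 of those intervals lay above 0. CDH18 was below 0 in 8 of 10, with 6 intervals below 0 and no type past the fold.

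Inhibitory nuclei were summed in the same way. Of 26 members, PCDH8 and CDH7 were higher in the deeper band, against 2.59% of 10062 genes, and CDH9, CDH23 and CDH1 were lower, against 1.99% of genes. CDH7 fell short of the fold with no doublets removed (log2 ratio 0.37), with CPM averaged over nuclei (0.50) and after thinning (0.39), and thinning left 1 member past the fold. CDH1 fell short with no doublets removed (-0.53). CDH9 had 559 and 293 CPM (log2 ratio -0.93, interval -1.01 to -0.855). With equal type shares it was at 549 and 299 CPM, a log2 ratio of -0.88, and 4 members remained past the fold (CDH7 and PCDH8 higher, against 2.69% of genes, and CDH9 and CDH23 lower, against 1.85%). Inhibitory types had closer shares in the bands, such as 34.8% and 28.3% for SST/LYPD6 nuclei.

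The ratio of CDH9 was similar in both types that carry it, at -0.89 (-1.01 to -0.77) in BTBD11/MYO18B nuclei and -0.855 (-0.96 to -0.75) in SST/LYPD6 nuclei. CDH7 was higher in the deeper band in the same types, with log2 ratios of 0.75 (0.60 to 0.90) and 0.56 (0.40 to 0.72), and at -0.265 (-0.745 to 0.21) in VIP/CALB2 nuclei. CDH12 was higher in all 5 inhibitory types, by 0.35 to 0.90 on the log2 scale, and 4 of the 5 intervals lay above 0. Over the whole class CDH12 was at 194 and 275 CPM, a log2 ratio of 0.50, short of the fold. The smallest ratio, 0.35, was in VIP/CALB2 nuclei, with CDH12 at 53.2 and 67.9 CPM. Excitatory nuclei held CDH12 at 364 and 461 CPM (log2 ratio 0.34), and their markers appeared in inhibitory nuclei at a median of 14.1% and 12.5%. The part of free RNA in the CDH12 values of inhibitory types was not tested.

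CDH8 went different ways in the inhibitory types. It was at 503 and 814 CPM in SST/LYPD6 nuclei (log2 ratio 0.695), at 86.75 and 212 CPM in NDNF/RELN nuclei (1.29) and at 405 and 230.3 CPM in VIP/CALB2 nuclei (-0.815, interval -1.07 to -0.57). The differences between these types were not tested. Excitatory nuclei held CDH8 at 529 and 665 CPM, and their markers appeared in inhibitory nuclei at a median of 14.1% and 12.5% of their own level. Single markers ranged from 4.86% to 33.65% and from 5.01% to 30.5%. The part of free RNA in the CDH8 values of inhibitory types was not tested. In SST/LYPD6 nuclei 2 of 19 members were higher in the deeper band (CDH8 and PCDH9, at 0.54 and 0.45 after thinning and so short of the fold), against 3.77% of genes, and 3 were lower (CDH9, CDH20 and PCDH10), against 3.1%. In BTBD11/MYO18B nuclei 2 of 20 were higher (CDH7, and CDH6, whose ratio was -0.32 after thinning to 1500 UMIs), against 2.61%, and CDH9 was lower, against 2.19%. NDNF/RELN nuclei had 3 of 13 higher (CDH8, CDH12 and CDH20, the last at -0.058 after thinning), against 2.57%, and none lower, against 2.48%. VIP/CALB2 nuclei had PCDH8 higher of 16, against 2.82%, and CDH4, CDH8 and CDH23 lower, against 3.54%. CDH4 there was at 214 and 101 CPM, a log2 ratio of -1.08.

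CDH23 was at 149 and 62.2 CPM in VIP/CALB2 nuclei, a log2 ratio of -1.26 (-1.735 to -0.80). In the whole class it was at 19.2 and 11.2 CPM (log2 ratio -0.79). PCDH8 was at 51.25 and 85.2 CPM in VIP/CALB2 nuclei, a log2 ratio of 0.73, and at 14.8 and 25.5 CPM in the class (0.78). CDH1 was at 15.02 and 9.43 CPM in the class, a log2 ratio of -0.67 that became -0.41 with equal type shares. In NOS1/CHODL nuclei, which held most CDH1 UMIs, its log2 ratio was -0.43 and the interval included 0.

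**Figure D4:**
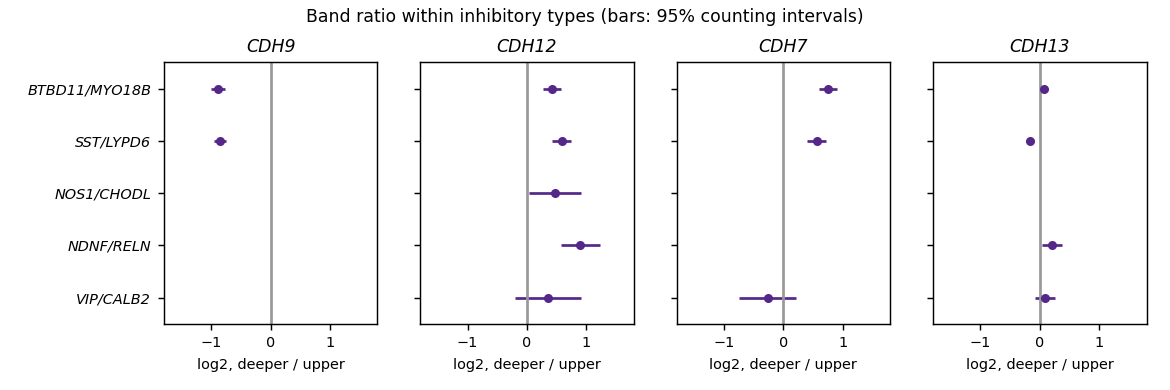
Log2 ratio of CPM, deeper over upper band (horizontal axes), of CDH9, CDH12, CDH7 and CDH13 in each inhibitory type with at least 100 UMIs of the gene (vertical axis), with bars for 95% counting intervals. CDH9 is near -0.9 in both of its types, CDH12 lies above 0 in all 5 and CDH13 stays within 0.21 of 0.

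In oligodendrocytes 1 of 13 members was higher in the deeper band, against 3.13% of 7469 genes, and 2 were lower, against 1.83%. CDH8 had 92.0 and 174 CPM (log2 ratio 0.92, interval 0.70 to 1.15). ABCA9/ENPP6 nuclei, the type with most CDH8, were 12.5% and 24.4% of the oligodendrocytes. Within that type the log2 ratio was 0.48 (0.15 to 0.82), and within OPALIN/TF nuclei 1.06 (0.40 to 1.79), on 21 and 165 UMIs. CDH18 was at 58.4 and 31.7 CPM and CDH13 at 25.2 and 15.5 CPM, which is at most 24.2% of their excitatory level and below the median share at which excitatory markers appeared there. Single excitatory markers ranged from 3.30% to 76.8% and from 2.10% to 103%. CDH13 was higher in inhibitory nuclei, at 1227 and 1204 CPM. Inhibitory markers appeared in oligodendrocytes at a median of 6.89% and 5.57% of their own level. The part of free RNA in CDH18 and CDH13 there was not tested. CDH20 and CDH19 differed little, with log2 ratios of -0.03 (-0.07 to 0.01) and -0.12 (-0.21 to -0.03).

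In astrocytes 2 of 15 members were higher, against 3.06% of 5268 genes, and 4 were lower, against 2.07%. CDH23 had 48.3 and 77.4 CPM (log2 ratio 0.68, interval 0.24 to 1.14), and excitatory nuclei held it at 3.64 and 4.41 CPM. PCDH19 was at 56.65 and 32.2 CPM (log2 ratio -0.82) and CDH13 at 78.3 and 47.3 CPM (log2 ratio -0.73). CDH13 stood at 1227 and 1204 CPM in inhibitory nuclei, whose markers appeared in astrocytes at a median of 6.44% and 4.33% of their own level. Those markers ranged from 2.39% to 162% and from 0.550% to 131%. CDH8 at 25.8 and 42.2 CPM (0.71) and CDH18 at 49.98 and 27.15 CPM (-0.88) were at 4.88% to 9.38% of their excitatory level, and CDH11 at 103 and 63.35 CPM (-0.705) at 27.96% and 18.1%. Excitatory markers appeared in astrocytes at a median of 26.3% and 19.7% of their own level. They ranged from 4.73% to 74.8% and from 4.03% to 72.4%. The part of free RNA in CDH8, CDH11, CDH13 and CDH18 there was not tested. After thinning, CDH8 (0.47), CDH13 (-0.34) and PCDH19 (-0.47) fell short of the fold in astrocytes. In precursors none of 10 members passed the fold, against 1.9% of 1897 genes in each direction.

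Partner genes were counted from lists of catenins and junction partners, the WAVE complex, other cadherin superfamily genes, and shedding enzymes. Only 11 of 15 listed junction partners, 8 of 9 WAVE genes and 4 of 5 shedding genes were found by symbol. CTNNA2, CTNNA3, CTNND2, NECTIN2, BRK1 and PSEN2 were not found, so these counts do not cover them. Of the 10 junction partners with enough UMIs in excitatory nuclei none passed the fold, nor did any of 8 WAVE genes or 4 shedding genes. Of 12 other superfamily genes 1 was lower and none higher. This was CLSTN2, a calsyntenin of the postsynaptic membrane, at 154 and 70.4 CPM (log2 ratio -1.125), and with equal type shares its log2 ratio was -0.02. CDHR3 was the 1 gene of that list lower at equal shares (-0.74), on 79 and 54 UMIs. In inhibitory nuclei none of 9, 8, 11 and 4 genes of these lists passed the fold. In oligodendrocytes 1 of 8 junction partners was lower, AFDN (afadin, which links nectins to actin), at 31.8 and 13.4 CPM. Its excitatory level was 292 and 240 CPM, and the part of free RNA in its oligodendrocyte level was not tested.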

How the data were processed

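Nuclei of ferret somatosensory cortex were profiled on the 10x Genomics platform, with 1 library per band. The deposited matrices, 1 per library, list genes by barcodes with raw UMI counts as whole numbers, and their headers name a software version of 3.1.0. Cell Ranger 2.1.1 and 6.2.1 are named per the submitters' processing notes. The genome build, the annotation and the treatment of intronic reads are not given in the sources used here. The files hold no sequences, and none are printed.

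The upper-band matrix held 7151 barcodes and 66253015 UMIs, the deeper-band matrix 9694 barcodes and 78352064 UMIs. Nuclei with at least 500 genes were kept. Scrublet (scanpy 1.11.5) then removed 11.9% and 14.5% as doublets, above the expected 5.67% and 7.69%, which lowered the median depth of the deeper library most. Both libraries were clustered together without the members (2000 variable genes, 30 components, 15 neighbours, Leiden at a resolution of 1, igraph 0.11.9, scikit-learn 1.9.0, Python 3.11.15), with no integration and no correction for free RNA. Clusters were named from marker lists. The scoring rule, and the minimum of 10 nuclei per library for a type, were set after the clusters had been seen. A marker counted as raised at 1/3 of its highest cluster level with a UMI in at least 10% of nuclei. A name needed at least 20 nuclei, 3 raised markers and no tie. A cluster also stayed unnamed with 5 or more markers of another class raised 2-fold, or with more top genes of another class. So did a cluster with low depth and no own marker among its 10 top genes, or with 3 or more raised markers of another vascular class. PVALB and other absent markers could not count.

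UMIs were summed per library and type and expressed as CPM. Sums carry exact Poisson intervals, log2 ratios exact conditional binomial intervals and shares exact Clopper-Pearson intervals, all 95%, and none covers variation between animals. Interval coverage was checked on simulated Poisson counts only, the model that the intervals themselves assume. That check does not cover extra variation between nuclei or libraries. Members with at least 1000 UMIs, members past 1.5-fold in a class, and the 3 members leading each type by ratio to the median of the other types were named, and 12 alternatives were run. Levels are not compared between genes, because gene lengths were not used here. The members, lists and rules were chosen with earlier results of these data known.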

Additional observations from a re-analysis of the deposited data

Results flagged for a closer look

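CDH23 went in opposite directions between the bands in 2 classes of nuclei. It was higher in the deeper band in astrocytes, with a log2 ratio of 0.68 at 48.3 and 77.4 CPM, and lower there in inhibitory nuclei, with a log2 ratio of -0.79 at 19.2 and 11.2 CPM. Most of the inhibitory signal came from VIP/CALB2 nuclei. The difference between the classes was not tested, since each band had 1 library. The astrocyte cluster with GFAP and CD44, which held 1.03% and 10.9% of the astrocytes (upper band first), had CDH23 at 0 CPM (0 to 261 CPM, from 4 nuclei) and 100.2 CPM (57.3 to 163), and the other astrocyte cluster had it at 48.9 and 75.4 CPM.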

How the results depend on the processing

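No paired analysis was possible because each band had a single library, and for the same reason no library could be left out. Over the 8 counts of members, 81 alternative values stayed within 1.5 times the value reported and 14 did not. With a minimum of 30 UMIs, 5 members were higher in the deeper band in excitatory nuclei, 1 was higher at equal type shares, and 8 were past the fold in oligodendrocytes. With a minimum of 300 UMIs, 2 were past it in inhibitory nuclei, 0 in astrocytes and 1 in oligodendrocytes. Asking for 2-fold left 1 higher and 1 lower member in excitatory nuclei and 0 each in inhibitory nuclei, astrocytes and oligodendrocytes. A lower minimum admits more genes, and a higher minimum or a stricter fold fewer, by construction. Thinning nuclei to 1500 UMIs gave 1 higher member in excitatory nuclei at equal type shares, 1 past the fold in inhibitory nuclei and 2 in astrocytes, and the cause was not tested. Of 21 single ratios none changed sign. CDH20 in excitatory nuclei fell short of 1.5-fold with CPM averaged over nuclei (-0.47), with 2 times as many doublets removed (-0.58) and when thinned (-0.57). CDH7 in inhibitory nuclei fell short with no doublets removed (0.37), with averaged CPM (0.50) and when thinned (0.39). Of 33 ratios within single types, run under the 3 alternatives that keep the same clusters, 3 changed sign, all when thinned: CDH6 in SYNPO2/MDGA1 nuclei to -0.447 and in BTBD11/MYO18B nuclei to -0.32, and CDH20 in NDNF/RELN nuclei to -0.058. The cause was not tested. CDH1 in inhibitory nuclei moved to -1.41 with 2 times as many doublets removed. Equal type shares in inhibitory nuclei, an alternative chosen after seeing the data, left 4 members past the fold. Members highest in a neuron type numbered 26 with no doublets removed and 24 with 2 times as many removed. Depth limits the small types most, such as NOS1/CHODL and GNB4/NR4A2.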
